A study of Mus musculus with 4 samples.

Results

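Bins dense in control tags are 1 kb stretches of the mouse autosomes that held at least 12 tags in the control library, made with non-specific IgG. A tag is the aligned 5′ end of a sequenced read, counted once per chromosome, position and strand. This rule kept 295 of 2259010 bins with a tag in any library on chromosomes 1 to 19, or 0.0131%, and joining adjacent bins gave 173 regions. Because IgG tags chose the bins, IgG values are given below as a description and support nothing. The tags of the other 3 libraries took no part in the choice.

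The 4 libraries were made from lineage-negative (Lin-) cells of mouse bone marrow, a fraction enriched for haematopoietic progenitors that remains once Lin+ cells have been removed with magnetic beads. Chromatin was crosslinked with formaldehyde, sonicated and immunoprecipitated with an antibody to Ldb1, Scl/Tal1 or Gata2, or with control IgG. The labels used here give no strain, sex or age. Each antibody had 1 library, so there is no replicate, no test between libraries is given, and all intervals are exact 95% intervals for counting error only (Poisson for levels, Clopper-Pearson for percentages, conditional binomial for ratios of levels).

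Ldb1 is a cofactor without DNA binding of its own that bridges DNA-bound proteins, Tal1 (Scl) is a basic helix-loop-helix factor of blood cells, and Gata2 is a zinc finger factor of stem and progenitor cells. Non-specific IgG should pull down no particular protein, so its tags show where a library gathers reads without a bound target. Such places are known to be of several kinds. In a collapsed repeat, many genomic copies are drawn as few in the assembly, and the reads of all copies pile up on the drawn ones. Mouse chromosomes have their centromere near the low end of the coordinates, and the satellite arrays there are largely missing from the assembly. Open chromatin, such as an active promoter, shears and dissolves more easily than packed chromatin and can also gather control reads. No bin is assigned to either kind here.

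Counted once per position, the IgG library had 3401045 autosomal tags, Ldb1 3866477, Tal1 8701045 and Gata2 5785973. To compare libraries of unequal depth, a level is the number of tags in a bin divided by the library's mean over all tagged bins, which was 1.51 for IgG, 1.71 for Ldb1, 3.85 for Tal1 and 2.56 for Gata2. A bin is called high for a factor at 4 times that mean or more, which takes at least 7 Ldb1, 16 Tal1 or 11 Gata2 tags. Tal1 tags measured 36 bp and those of the other libraries 25 bp. Ldb1 and IgG tags carry 1 kind of mismatch code and Tal1 and Gata2 tags another, so the files were not all made alike. The part of these differences in the results was not tested.

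The 3 factor libraries were also dense in most of these bins. Per bin, IgG had 12 tags at the lowest, a median of 21 and 387 at the highest. Ldb1 ranged from 0 to 735 tags with a median of 28, Tal1 from 0 to 920 with a median of 35, and Gata2 from 1 to 1095 with a median of 24. Every library thus ran from few tags to many across the same bins. The pooled level was 26.7 times the mean for Ldb1 (26.3 to 27.2), 17.2 times for Tal1 (17 to 17.5) and 20.2 times for Gata2 (19.9 to 20.6). Median levels were lower, at 16.4, 9.09 and 9.37 times, since a few bins held many tags. The IgG level that the rule fixed was 25.1 times pooled and 13.9 times at the median. The 295 bins held 0.328% of the autosomal IgG tags, 0.349% of Ldb1, 0.225% of Tal1 and 0.264% of Gata2.

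Factor levels rose with the number of IgG tags in a bin, slowly at first and steeply near the limit of 12. In the 595223 bins without an IgG tag, Ldb1 stood at 0.885 times its mean, Tal1 at 0.876 and Gata2 at 0.849 times. At 6 IgG tags they were 1.27, 1.27 and 1.34 times. At 20 to 39 IgG tags they reached 23.8 times for Ldb1, 17.7 for Tal1 and 18.3 for Gata2. In the 26 bins with 80 or more IgG tags they were 135, 78.1 and 109.9 times. The rise held across all 3 factors but was not even. From 11 to 12 IgG tags, Ldb1 went from 4.46 to 4.18 times, Tal1 from 3.08 to 2.30 and Gata2 from 3.09 to 2.42.

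**Figure D1:**
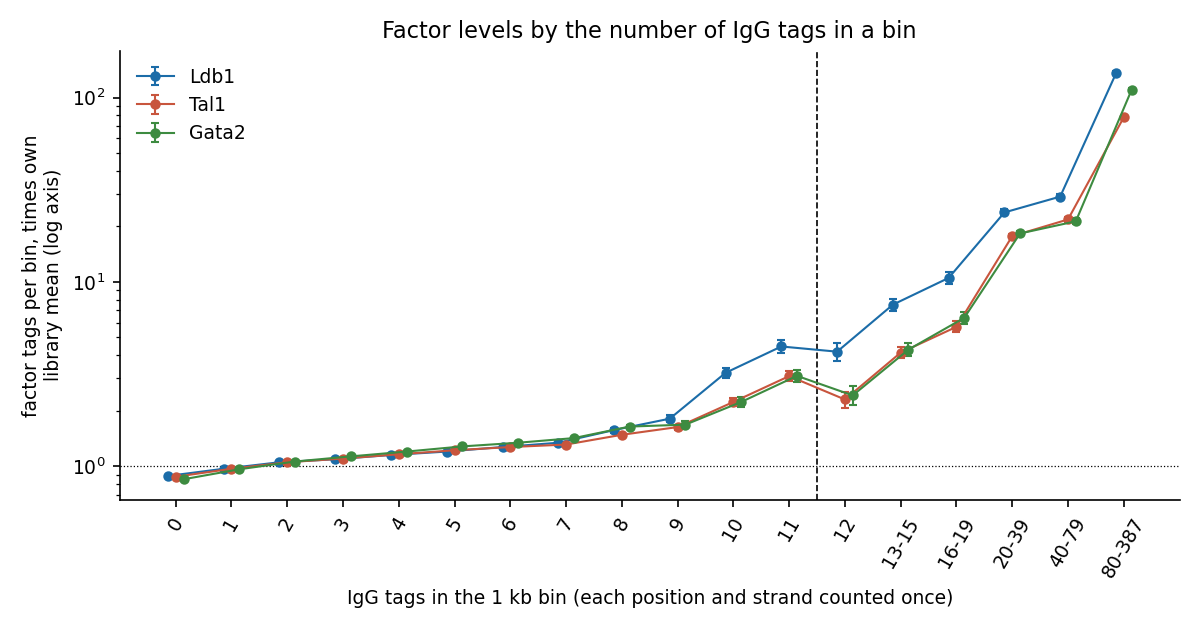
Pooled level of each factor (tags per bin over the library's own mean, log axis) in bins grouped by their number of IgG tags, with exact 95% Poisson intervals. The dashed line marks the limit of 12 tags, and levels go from 0.849 to 0.885 times the mean at 0 IgG tags to 78.1 to 135 times at 80 or more.

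On either side of the limit the median factor counts were close. The 80 bins with 11 IgG tags had medians of 5 Ldb1, 6 Tal1 and 5 Gata2 tags, and the 46 bins with 12 had 5.50, 5 and 5. The former ranged up to 49 Ldb1, 83 Tal1 and 50 Gata2 tags, the latter up to 24, 57 and 25. No factor was high in 58.8% of the bins with 11 IgG tags and in 47.8% of those with 12. All 3 factors were high in 16 of the former (20%) and 5 of the latter (10.9%), and Ldb1 alone in 8 (10%) and 13 (28.3%).

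Calls of high levels were far more frequent in these bins than in the genome at large. Ldb1 was high in 252 of the 295 bins, or 85.4% (80.9 to 89.2), against 1.47% of all tagged bins. Tal1 was high in 190, or 64.4% (58.7 to 69.9), against 1.44%. Gata2 was high in 194, or 65.8% (60 to 71.2), against 1.23%. All 3 factors were high together in 178 bins, or 60.3% (54.5 to 66.0), against 0.432%. That share was 37.4% without bins near a chromosome start and 36.3% without regions of 3 or more bins. Of the 173 joined regions, 59 (34.1%) had all 3 factors high in every bin, and the intervals for bins take adjacent bins as independent. Another 55 bins, 18.6% (14.4 to 23.6), were high in Ldb1 alone, against 0.665%. In 36 bins, 12.2% (8.70 to 16.5), no factor was high, against 97.3% of all tagged bins. The remaining 26 bins had other combinations, with Ldb1 and Gata2 in 12, Ldb1 and Tal1 in 7, Tal1 alone in 3, Gata2 alone in 2 and Tal1 and Gata2 in 2.

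**Figure D2:**
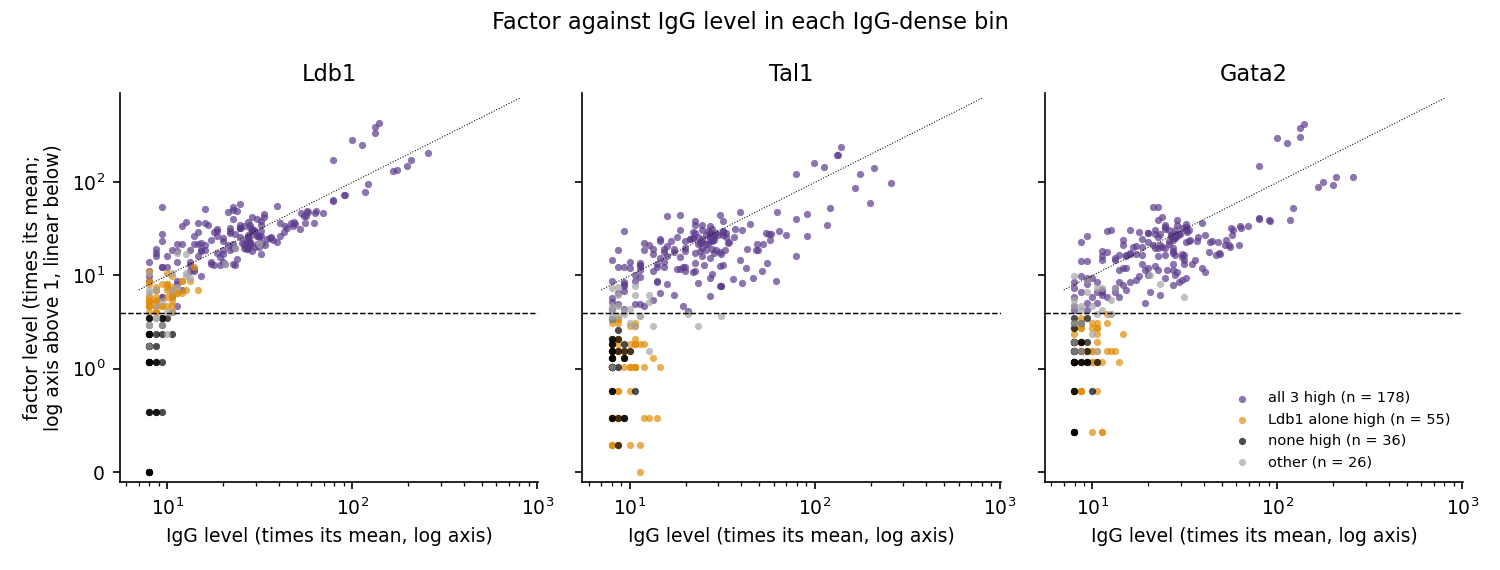
Level of Ldb1, Tal1 and Gata2 (times the library's own mean) against the IgG level in each of the 295 IgG-dense bins, coloured by which factors were high (dashed line, 4 times the mean; dotted line, equal levels). The 178 bins high in all 3 factors span the whole IgG range and lie on both sides of the dotted line, while the 55 bins high in Ldb1 alone and the 36 with no high factor lie at the low end of the IgG axis.

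The more IgG tags a bin held, the more often all 3 factors were high. All 3 were high in 5 of the 46 bins with 12 IgG tags (10.9%), in 65 of the 71 with 20 to 39 (91.5%) and in all 26 with 80 or more. Bins high in Ldb1 alone were most frequent at 13 to 19 IgG tags, with 40.4% at 13 to 15 and 42.1% at 16 to 19, and fell to 4.23% at 20 to 39 and none above. Across the 295 bins, log2 tag numbers plus 1 correlated at 0.835 between IgG and Ldb1, 0.772 between IgG and Tal1 and 0.815 between IgG and Gata2. Tal1 and Gata2 correlated at 0.940. Over the 173 joined regions the same values were 0.775, 0.715, 0.770 and 0.906. Bins and regions share their libraries and, where adjacent, their sequence, so these values only describe the set.

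IgG-dense bins made up a larger share of the places where all 3 factors were strongest. Of 9753 bins with all 3 factors at 4 times their mean or more, 178 were IgG-dense, or 1.83% (1.57 to 2.11). At 10 times the mean or more they were 128 of 877 bins, or 14.6% (12.3 to 17.1). At 20 times or more they were 73 of 152, or 48.0% (39.9 to 56.3), and at 50 times or more 12 of 16, or 75% (47.6 to 92.7). These sets are nested, and the intervals take adjacent bins as independent, which they are not. The 12 at 50 times include all 6 bins of the chromosome 17 region described below. The others of the 12 lay in the regions of chromosomes 2, 5 and 14 described there. Many of the IgG-dense bins lay together near a chromosome start, as described below. They were 111 of the 178 at 4 times, 89 of the 128 at 10 times, 50 of the 73 at 20 times and 2 of the 12 at 50 times. The bins themselves were rare, with 0.0388% of all tagged bins at 10 times, 0.00673% at 20 times and 0.000708% at 50 times.

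With positions counted once, the balance between the factors differed between IgG-dense and other bins high in all 3. In the 178 IgG-dense bins the Tal1 level was 0.669 times the Ldb1 level (0.654 to 0.684), and in the 9575 others it was 1.22 times (1.21 to 1.22). The Tal1 level was 0.854 times that of Gata2 (0.835 to 0.873) in the former and 1.48 times (1.47 to 1.49) in the latter. Gata2 relative to Ldb1 differed less, at 0.784 (0.765 to 0.803) and 0.823 (0.817 to 0.828). Without a 6 kb region of chromosome 17 described below, Tal1 stood at 0.704 times Ldb1 (0.686 to 0.722) and 0.986 times Gata2 (0.961 to 1.01). Counted once per position, Tal1 was thus the lowest of the 3 factors relative to its mean in the IgG-dense bins, level with Gata2 within counting error once that region was left out, and the highest in the others. With repeated tags kept, the pooled order in the IgG-dense bins was not the same, as given below. Among bins with all 3 factors at 20 times their mean or more, where density was more alike, Tal1 stood at 0.670 times Ldb1 (0.652 to 0.689) in the 73 IgG-dense bins and at 1.04 times (1.02 to 1.07) in the 79 others. IgG itself was at 1.34 times its mean (1.33 to 1.36) in the 9575 others and at 1.24 times (1.04 to 1.45) in these 79. The limit of 12 tags holds both values down.

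Position set many of these bins apart from the genome. Of the 295, 116 (39.3%) lay within 200 kb of the first tagged bin of their chromosome, a stretch that holds 0.133% of all tagged bins. These 116 bins formed 22 regions on 9 chromosomes, with 71 bins on chromosome 11, 25 on chromosome 9 and 9 on chromosome 4. The distance of 200 kb was chosen after positions had been seen. Chromosome 11 held 89 of the 295 bins, or 7.72 per 10000 tagged bins, and chromosome 9 held 35, or 3.01 per 10000. The other chromosomes had between 0.251 (chromosome 8) and 1.5 (chromosome 17) per 10000.

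Bins near a chromosome start and bins elsewhere differed in which factors were high. Near a start, 111 of the 116 bins were high in all 3 factors, 2 in Ldb1 alone, and none lacked a high factor. Elsewhere, 67 of the 179 bins were high in all 3, 53 in Ldb1 alone and 36 in none. The median levels near a start were 24.2 times the mean for Ldb1, 19.7 for Tal1 and 21.1 for Gata2, and elsewhere 7.01, 3.12 and 3.12 times. The strands were also uneven near a start, where 41.4% of the IgG tags (40 to 42.7) and 44.0% of the Ldb1 tags (42.8 to 45.3) lay on the forward strand, against 47.1% for Tal1 (46.1 to 48.1) and 46.6% for Gata2 (45.3 to 47.8). Elsewhere the shares were between 49.4% and 51.3%.

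Most regions were isolated. Of the 173 regions, 145 were a single bin, 13 had 2 bins and 15 had 3 or more. Those 15 held 124 bins, or 42.0%, of which 116 were high in all 3 factors and 2 in Ldb1 alone. The single bins were mixed, with 40 high in all 3 factors, 53 in Ldb1 alone and 36 in none.

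The longest regions lay side by side at the start of chromosome 11 (all positions are in build mm8, and no annotation of that build was used, so no gene, exon or repeat is assigned). They ran from chr11:3031001-3049000 (18 bins) through chr11:3051001-3080000 (29 bins) to chr11:3081001-3100000 (19 bins), with only short gaps below the limit. All 66 bins were high in all 3 factors, and the 4 libraries stood at nearly the same level. In the middle region the level was 26.7 times the mean for IgG, 27.8 for Ldb1, 25.2 for Tal1 and 25.6 for Gata2. In the last it was 23.4, 24.6, 22.2 and 22.6 times. The first departed from this, with IgG at 19.8 times and Ldb1 at 29.6, Tal1 at 27.4 and Gata2 at 24.8 times.

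A shorter region at the very start of that chromosome, chr11:3000001-3005000, was unlike the long ones. Its 5 bins held 42, 119, 64, 61 and 70 IgG tags and 38, 107, 50, 46 and 63 Ldb1 tags. Tal1 had 40, 62, 46, 32 and 36 tags there and Gata2 26, 105, 46, 28 and 42. The levels were thus 47.3 times the mean for IgG and 35.5 for Ldb1 but 11.2 for Tal1 and 19.3 for Gata2. Positions without a mismatch made up 30.1% of the IgG and 31.0% of the Tal1 positions, against 63.1% and 64.2% in the 29-bin region.

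The densest region for all 3 factors was on chromosome 17, at chr17:39451001-39457000. Its 6 bins held 200, 209, 199, 169, 119 and 149 IgG tags and 578, 735, 668, 433, 299 and 490 Ldb1 tags. Tal1 had 762, 920, 755, 558, 479 and 627 tags there and Gata2 793, 1095, 985, 683, 385 and 773. All 4 libraries were highest in the second bin and lowest in the fifth. The pooled levels were 116 times the mean for IgG (109 to 123), 312 for Ldb1 (301 to 323), 177 for Tal1 (172 to 183) and 307 for Gata2 (298 to 316). Each factor thus stood higher here, relative to its mean, than IgG did. Leaving this region out lowered the pooled level over all IgG-dense bins to 20.8 times for Ldb1, 13.9 for Tal1 and 14.3 for Gata2.

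At chr5:3000001-3003000 IgG stood highest relative to its mean. The 3 bins held 387, 249 and 119 IgG tags, 353, 225 and 110 Ldb1 tags, 380, 337 and 157 Tal1 tags, and 291, 227 and 103 Gata2 tags. The levels fell from 167 times the mean for IgG to 134 for Ldb1, 80.8 for Gata2 and 75.6 for Tal1. At chr2:98463001-98469000 the 6 bins held 264, 182, 176, 15, 313 and 46 IgG tags, so a bin with few tags lay within the region. Ldb1 had 230, 166, 135, 7, 294 and 47 tags there, Tal1 469, 204, 133, 17, 556 and 69, and Gata2 260, 137, 102, 6, 295 and 44. The same bin was lowest in every library. Levels over the region were 110.3 times the mean for IgG, 85.6 for Ldb1, 62.7 for Tal1 and 54.9 for Gata2.

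These regions and 3 more were named for their IgG tags, so the place of IgG among the libraries is only a description. At chr14:18208001-18211000 the level was 83.0 times the mean for IgG, 63.7 for Ldb1, 40.5 for Gata2 and 29.9 for Tal1. At chr9:3024001-3028000 it was 51.3, 38.6, 24.1 and 23.1 times, and at chr9:3000001-3006000 37.7, 30.0, 15.4 and 14.8 times. Among the factors, Ldb1 was above Gata2 and Tal1 in the 5 regions of chromosomes 2, 5, 9 and 14 just given. A 7-bin region, chr5:80491001-80498000, had low levels throughout, at 11.6 times for IgG, 8.60 for Ldb1 and 6.08 for both Tal1 and Gata2. By contrast chr5:146565001-146566000, a single bin, held 34 IgG, 87 Ldb1, 110 Tal1 and 141 Gata2 tags. It was among the 3 regions with the highest Gata2 level, 55.1 times the mean, with Ldb1 at 50.8 and Tal1 at 28.6 times.

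Tags with mismatches were frequent in IgG-dense bins in every library. Positions with a tag without a mismatch made up 50.7% of the IgG positions (49.8 to 51.7), against 69.4% (69.3 to 69.4) in all other tagged bins. The shares were 58.0% (57.2 to 58.9) against 78.6% for Ldb1, 59.8% (59.1 to 60.5) against 92.0% for Tal1 and 74.5% (73.8 to 75.2) against 95.7% for Gata2. In bins high in all 3 factors but not IgG-dense, the shares stayed near those of the genome, at 82.6% for Ldb1 (82.4 to 82.8), 91.8% for Tal1 (91.8 to 91.9) and 95.6% for Gata2 (95.5 to 95.7). In every library the share was lowest at 16 to 19 IgG tags and higher above that. The fall was not even. Tal1 went from 63.7% at 11 IgG tags to 67.1% at 12, and Ldb1 from 46.5% at 12 to 47.3% at 13 to 15. IgG went from 68.6% at 1 tag to 69.9% at 5. The share was 76.7% for Ldb1 and 91.4% for Tal1 at 5 IgG tags, and 52.5% and 63.7% at 11. It was 43.8% and 52.5% at 16 to 19 tags, and 64.1% and 63.5% at 80 or more.

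**Figure D3:**
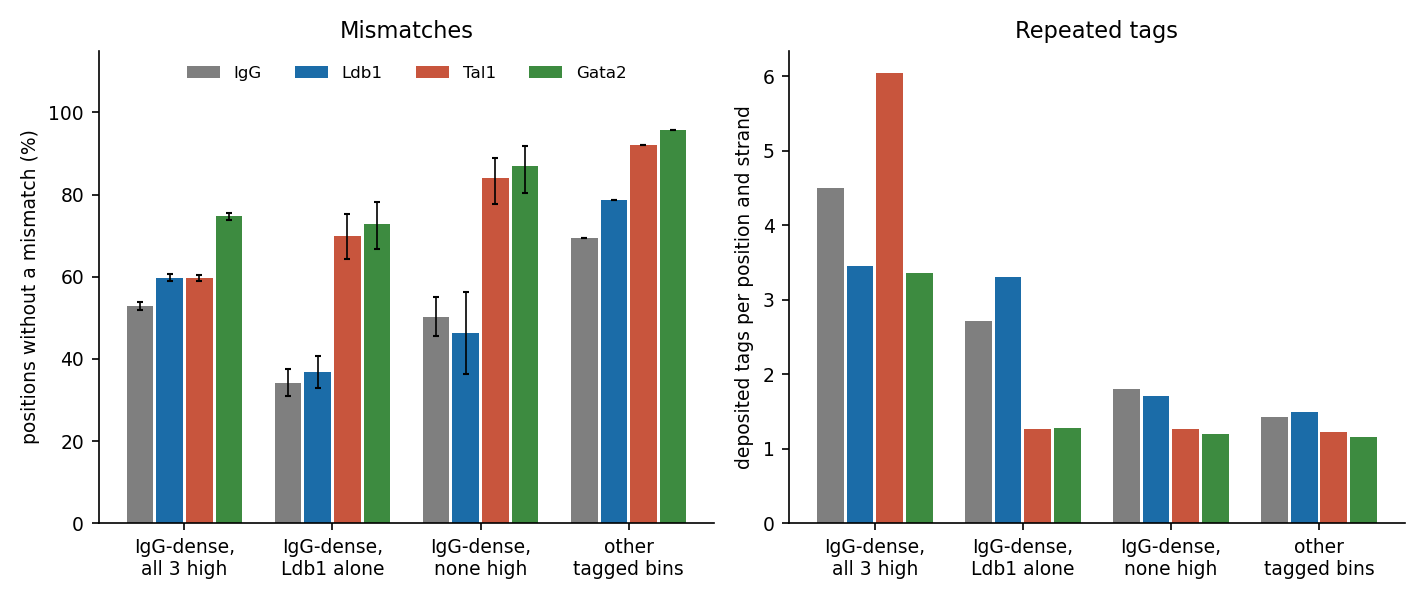
Left, percentage of positions with a tag without a mismatch in each library, with exact 95% intervals; right, deposited tags per position and strand. IgG-dense bins high in Ldb1 alone had the lowest shares for IgG (34.2%) and Ldb1 (36.7%), and pooled tags per position reached 6.04 for Tal1 in IgG-dense bins high in all 3 factors, a value that few bins carry.

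In the 55 bins high in Ldb1 alone, the IgG tags were packed in a short stretch of the bin, and so were the Ldb1 tags. Whether the stretches of the 2 libraries coincide was not measured. These bins held 12 to 22 IgG tags (median 14) and 7 to 21 Ldb1 tags (median 10), but 0 to 13 Tal1 tags (median 4) and 1 to 10 Gata2 tags (median 4). The Ldb1 level was 6.43 times the mean (5.92 to 6.96), with Tal1 at 1.34 (1.18 to 1.5) and Gata2 at 1.75 times (1.53 to 1.98). In a typical bin of this group, 92.3% of the IgG tags and 88.9% of the Ldb1 tags fell in the fullest 200 bp (medians). In bins high in Ldb1 alone but not IgG-dense, the Ldb1 share was 42.9% at a median of 7 tags. Positions without a mismatch were 34.2% for IgG (31.0 to 37.6) and 36.7% for Ldb1 (32.8 to 40.7), against 70.0% for Tal1 (64.3 to 75.2) and 72.8% for Gata2 (66.7 to 78.2). A reverse tag covered the very bases of a forward tag for 47.4% of the forward IgG tags and 38.0% of the forward Ldb1 tags. This was so for 3.7% of the Tal1 and 10.7% of the Gata2 tags, which were fewer per bin, and for 0.666% of the Ldb1 tags in bins high in Ldb1 alone that were not IgG-dense. Other IgG-dense bins shared these traits in part. In IgG-dense bins high in all 3 factors, a reverse tag lay on the same bases for 31.4% of the forward Ldb1 tags. In the 26 IgG-dense bins with other combinations, 36.8% of the IgG positions (32.3 to 41.4) and 38.1% of the Ldb1 positions (33.1 to 43.3) had no mismatch. The 2 libraries dense in these bins are the 2 whose files share 1 mismatch code, and the part of the file format in this was not tested.

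The 36 bins with no high factor were dense in IgG alone. They had 12 to 16 IgG tags, with medians of 3 Ldb1, 5 Tal1 and 3.50 Gata2 tags. The factor levels were still a little above the mean, at 1.69 times for Ldb1 (1.38 to 2.05), 1.31 for Tal1 (1.12 to 1.51) and 1.57 for Gata2 (1.33 to 1.85). Ldb1 had no tag in 4 of them, a count that allows up to 3 tags at this depth. Named here are the bins with 16 and 15 IgG tags and 1 of 6 bins that tie at 14, chr6:109069001-109070000 (16 IgG, 4 Ldb1, 3 Tal1 and 3 Gata2 tags), chr3:149254001-149255000 (15, 6, 6 and 2 tags) and chr3:11548001-11549000 (14, 2, 6 and 9 tags). None of the 36 lay near a chromosome start or within a joined region of several bins. The IgG count itself chose these bins, and 22 of the 36 had exactly 12 tags.

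Levels fell steeply at the edge of the regions. Away from chromosome starts, the 42 regions high in all 3 factors in every bin had levels of 37.0 times the mean for IgG, 58.2 for Ldb1, 34.3 for Tal1 and 49.2 for Gata2. These pooled levels include the chromosome 17 region, which by itself stood at 116, 312, 177 and 307 times. They were not taken without it, so the order of the libraries here is no trait of the 42 regions in general. In the bins next to the 42 regions the levels were still 1.94 (1.7 to 2.21), 2.01 (1.78 to 2.27), 2.06 (1.90 to 2.22) and 1.87 times (1.68 to 2.07). They were 1.22, 1.73, 1.56 and 1.38 times at 2 kb and 1.04, 1.08, 1.02 and 0.971 times at 10 kb. Beside the 22 regions near a chromosome start the fall was less steep. There, in 32 adjacent bins, IgG stood at 3.47 times its mean (2.96 to 4.03), Ldb1 at 6.34 (5.69 to 7.04), Tal1 at 5.32 (4.92 to 5.75) and Gata2 at 4.18 times (3.75 to 4.65). Some of these 32 bins lie in short gaps between regions of chromosomes 9 and 11, with a dense region on either side. The part of such gaps in the slower fall was not tested. Around the 53 regions high in Ldb1 alone, the adjacent bins were at 1.20 times for IgG, 1.18 for Ldb1, 1.19 for Tal1 and 1.09 for Gata2. Around the 36 regions without a high factor they were at 1.25, 1.11, 0.930 and 1.08 times. The rule itself keeps IgG in adjacent bins below 12 tags, while the factor levels there were free to vary.

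**Figure D4:**
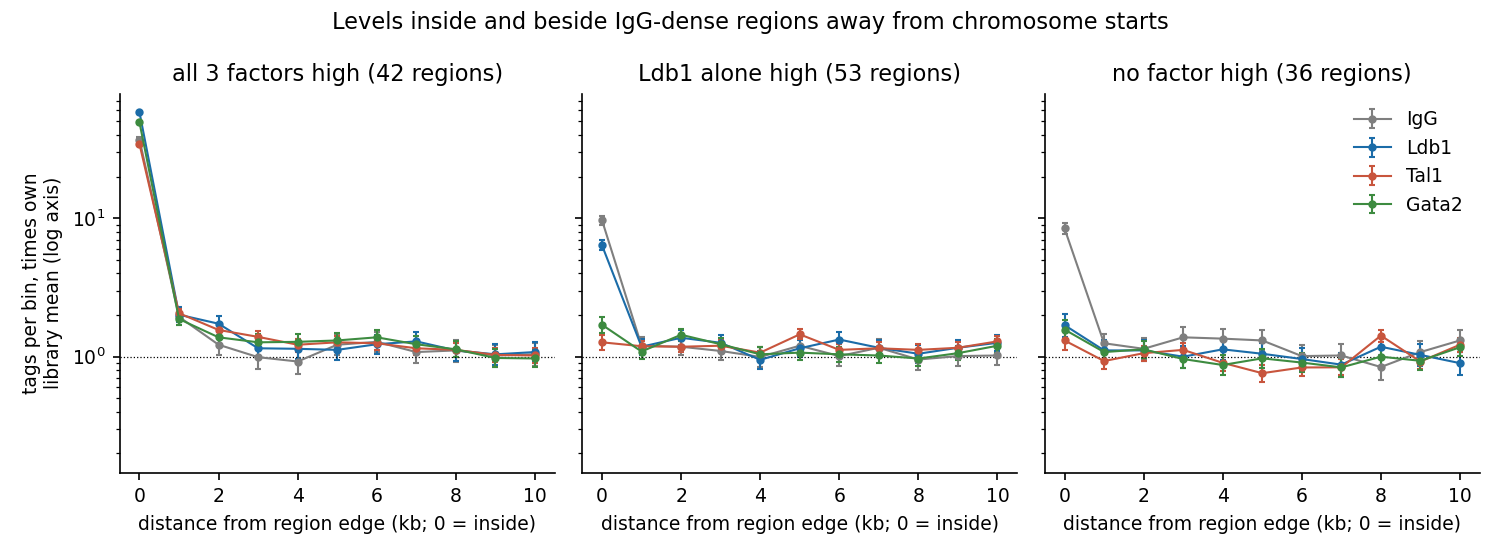
Level of each library (times its own mean, log axis, exact 95% Poisson intervals) inside IgG-dense regions away from chromosome starts and in bins 1 to 10 kb from their edges. All 4 libraries drop to about 2 times the mean (1.87 to 2.06) in the first bin beside regions high in all 3 factors, and to between 0.930 and 1.25 times beside the other kinds. The levels inside regions high in all 3 factors include the very dense chromosome 17 region.

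The arrangement of strands also set IgG-dense bins apart from other bins high in all 3 factors. Around a bound protein, reverse tags lie downstream of forward tags at about the fragment length, and such facing pairs outnumber pairs that point away from each other. At distances of 60 to 160 bp, facing pairs were 5.23 times as many as pairs pointing away for Ldb1 in the 9575 bins that were not IgG-dense, 3.47 times for Tal1 and 2.31 times for Gata2. In the 178 IgG-dense bins they were 1.09 times for Ldb1 and Tal1 and 1.05 times for Gata2. IgG had 1.14 times in the IgG-dense bins and 1.57 times in the others. Dense bins weigh most in these counts, and pairs share tags, so no interval is given. Without the chromosome 17 region the IgG-dense values were 1.17, 1.16 and 1.07 times for Ldb1, Tal1 and Gata2.

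The difference remained when only bins of high factor density were compared, although their density was not equal. With all 3 factors at 20 times their mean or more, the 79 bins that were not IgG-dense had facing to away ratios of 5.85 for Ldb1, 2.80 for Tal1 and 1.91 for Gata2. In the 73 IgG-dense bins these were 1.07, 1.08 and 1.04. In the former the fullest 200 bp held a median of 61.9% of the Ldb1, 57.0% of the Tal1 and 58.7% of the Gata2 tags, and in the latter 36.5%, 34.7% and 32.4%. In this comparison the tags of the IgG-dense bins were spread wider and showed little strand order. The wide spread was not shared by all IgG-dense bins, since 50 of these 73 lay near a chromosome start. In the 67 IgG-dense bins away from a start with all 3 factors high, the fullest 200 bp held 58.4%, 59.8% and 61.3% (medians). The pooled facing to away ratios there were 1.08, 1.07 and 1.05, mostly from the 6 bins of the chromosome 17 region. That region held 50743 of the 63008 facing Ldb1 pairs, 80480 of 114414 for Tal1 and 109450 of 123146 for Gata2. The facing pairs of the 73 bins, 70009, 134104 and 131305, include the same pairs. Neither ratio was taken without that region. Median tag numbers in the bins that were not IgG-dense and in the IgG-dense bins at 20 times or more were 82 and 66 for Ldb1, 200 and 111 for Tal1, and 69 and 79 for Gata2. The highest numbers were further apart, at 274 and 735 for Ldb1, 625 and 920 for Tal1, and 572 and 1095 for Gata2. The limit of 20 times was chosen after the first ratios had been seen.

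**Figure D5:**
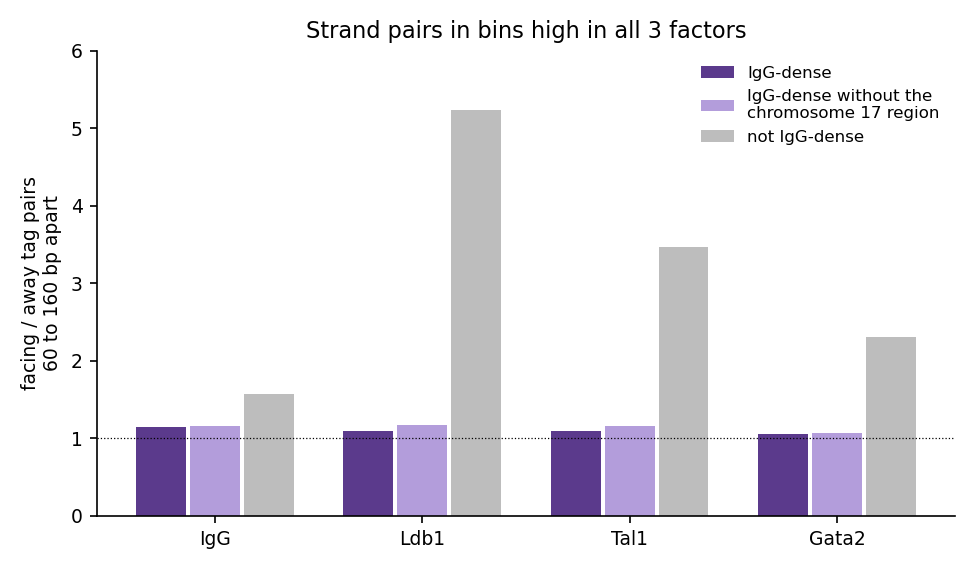
Ratio of facing to away-pointing tag pairs 60 to 160 bp apart in bins high in all 3 factors, by library. IgG-dense bins lie between 1.05 and 1.17 with or without the chromosome 17 region, and bins that are not IgG-dense reach 5.23 for Ldb1, 3.47 for Tal1 and 2.31 for Gata2.

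Repeated tags, left out so far, were more frequent per position in IgG-dense bins, although these bins held only 0.742% to 1.07% of the deposited autosomal tags of a library. Each position there had 4.19 deposited tags for IgG, 3.41 for Ldb1, 5.84 for Tal1 and 3.27 for Gata2, against 1.42, 1.49, 1.22 and 1.16 in all other tagged bins. With repeated tags kept, the pooled level rose to 61.0 times the mean for Ldb1, 82.1 for Tal1 and 56.8 for Gata2, and the IgG level to 73.5 times. The order of the pooled levels turned, since Tal1 was the lowest with positions counted once and the highest with repeated tags kept. At the median Ldb1 stayed the highest, with 20.7 times for Ldb1, 12.1 for Tal1 and 11.7 for Gata2 when repeated tags were kept. The pooled order also turned in the 178 bins high in all 3 factors, with Tal1 at 134, Ldb1 at 94.3 and Gata2 at 92.2 times. In the 9575 others these were 13.6, 10.8 and 8.44 times, so Tal1 was highest in both sets. The medians kept the earlier contrast, with Tal1 at 25.9, Ldb1 at 33.3 and Gata2 at 27.7 times in the 178. In the 9575 others they were 8.05, 7.04 and 6.71 times. The share of bins high in all 3 factors hardly moved, at 184 of 295 (62.4%), against 0.421% of all tagged bins. The medians per bin were 1.55 tags per position for IgG, 1.78 for Ldb1, 1.33 for Tal1 and 1.27 for Gata2, so few bins carried most of the repeats.

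Regions of chromosomes 2 and 14 held many of them. At chr2:98463001-98469000 the deposited tags numbered 14393 for IgG, 10634 for Ldb1, 52812 for Tal1 and 14632 for Gata2, or 14.5, 12.1, 36.5 and 17.3 per position. Among the 295 bins, the last bin of that region had the most tags per position in all 4 libraries, with 8111 Tal1 tags on 69 positions and 1890 IgG tags on 46. A bin named here after its values were seen, chr14:39187001-39188000, held 16389 deposited Tal1 tags but 185 when counted once, with 1129 and 94 for IgG, 1109 and 80 for Ldb1, and 1562 and 87 for Gata2. The 3 long regions of chromosome 11 went the other way and were hardly repeated, with 1.20 to 1.64 tags per position across the libraries.

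Applying the limit of 12 IgG tags to tags as deposited gave a different set of bins. It kept 4611 bins, among them all 295 of the original set, while 4316 (93.6%) passed only through repeated tags. Those 4316 bins had a median of 6 IgG positions and 13 deposited IgG tags, with medians of 2 Ldb1, 4 Tal1 and 3 Gata2 positions. All 3 factors were high in 76 of them, or 1.76%, against 0.432% of all tagged bins and 60.3% of the IgG-dense bins. The largest such pile was at chr16:60832001-60833000, where 113013 deposited IgG tags, 2.19% of that library, fell on 9 positions and 112803 of them on a single position. Ldb1 and Gata2 had no tag in that bin and Tal1 had 4. The next, at chr3:107783001-107784000, held 26589 IgG tags on 6 positions, with 0 Ldb1, 7 Tal1 and 7 Gata2 tags. Neither bin was IgG-dense with positions counted once.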

How the data were processed

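Aligned tags of 4 chromatin immunoprecipitation libraries were used, 1 per antibody. The authors deposited 1 line per tag with repeated tags kept; the files have no header. Per the submitters' processing notes, positions refer to mm8. Neither an aligner nor its filters are named in what was used here. Ldb1 and IgG tags carry a mismatch class of up to 2 and a deposited score of 0, Tal1 and Gata2 tags a match descriptor and a varying deposited score; scores were not used. Totals as deposited were 5156509 IgG, 6042990 Ldb1, 11134890 Tal1 and 7053702 Gata2 tags, of which 29.9%, 32.9%, 18.3% and 14.1% repeated a position.

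5′ ends were counted in bins of 1000 bp from position 0 on chromosomes 1 to 19, and bins with at least 12 IgG tags were kept and joined. Levels were divided by the mean over bins with a tag in any library. A position counts as without a mismatch if any of its tags has none. Precision is set by tag number: exact 95% intervals (scipy 1.17.1, Python 3.11.15) cover counting error only, since repeats and neighbouring bins are not independent.

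The named regions were the 10 with most IgG tags, the 5 longest, the 3 highest for each factor and the 3 with most IgG tags and no high factor (of 4 regions tied for the fifth longest, the one with most IgG tags, and of 6 tied at 14 IgG tags without a high factor, the one with the lowest start); regions of chromosome 18 were counted but not named. The members, groups and rules were chosen with earlier results of these data known. The 200 kb distance, the 10-, 20- and 50-fold levels and the measures of strand, spread and flanks were chosen after values had been seen. Counting was tested on simulated data. Alternatives changed the limit, repeats, mismatches, bin start and strand, and left out regions. No sequence is shown, because no mm8 genome was used here.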

Additional observations from a re-analysis of the deposited data

Results flagged for a closer look

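Tags outside chromosomes 1 to 19 were not part of the set. The IgG file lists 935 mitochondrial tags (635 when counted once per position), which is 0.0181% of that library (95% exact interval 0.0170 to 0.0193), while the 3 factor files list 0. The 13 bins of 1 kb with these tags all had at least 12 of them, from 14 to 73 with a median of 53.0.

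On chromosome X, 22 of 137292 tagged bins had at least 12 IgG tags. Per bin they held a median of 14.5 IgG tags (12 to 46), 17 Ldb1 (0 to 56), 5.50 Tal1 (0 to 97) and 11.5 Gata2 tags (3 to 60). All 3 factors reached 4 times their autosomal mean in 7 of them, and in 90 (0.0656%) of all tagged bins of that chromosome.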

How the results depend on the processing

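No paired analysis was possible because each antibody has 1 library. Values are given in the order of number of bins, pooled Ldb1, Tal1 and Gata2 level (times the mean) and percentage of bins high in all 3 factors. The reported values are 295, 26.7, 17.2, 20.2 and 60.3%. With a minimum of 10 IgG tags they were 553, 15.9, 10.4, 12 and 37.6%, and with 20 they were 154, 44.6, 29.4, 34.9 and 95.5%. With repeated tags kept in selection and levels they were 4611, 5.42, 6.62, 4.99 and 5.79%. With the same selection and levels once per position (added later) the levels were 3.13, 2.39 and 2.63 and the share 5.51%. With repeated tags kept only in the levels, these were 61.0, 82.1 and 56.8. Tags without a mismatch alone gave 135, 37.6, 21.4, 30.2 and 81.5%. Bins shifted by 500 bp gave 284 bins with levels of 27.7, 17.9 and 20.9, and 64.1%. Selection by at least 6 forward IgG tags gave 1547, 6.33, 4.39, 5.07 and 13%; reverse IgG tags, which took no part in it, stood there at 6.10 times their mean (5.96 to 6.24) but numbered 0 or 1 in 850 bins. Without regions of 3 or more bins the values were 171, 12.2, 6.96, 7.32 and 36.3%. Alternatives chosen after seeing the data left out bins near a chromosome start (179, 24.7, 14.4, 19 and 37.4%), the 4 chromosome 11 regions near its start (15.1 for Tal1, 19 for Gata2 and 47.8%) and the chromosome 17 region (20.8, 13.9 and 14.3). In these settings Ldb1 had the highest pooled level of the 3 factors, except where repeated tags counted in the levels. By construction, these settings keep other bins or count other tags; beyond that, the cause was not tested. The depth, with a mean of 1.51 IgG tags per bin, limits what can be said of bins just above 12 tags.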
